A study of Mus musculus with 16 samples.

Results

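The genes described here are 51 genes of the cell cycle and of DNA replication, taken from a list by name and each read by 1 probe set, the one with the highest mean log2 intensity over the arrays among those that the platform gives a single gene symbol. Of the 51, 50 were measured (26 of 27 mitotic genes, 21 G1/S and replication genes and 3 Cdkn inhibitors), out of 18193 genes named on the array, and Ccnb1 was not analysed here. Tests covered the 13007 of 18193 genes that came to a level minimum of log2 6 on 2 or more arrays, and all 50 members were among them. Of the members, 49 lay above this minimum on all 16 arrays, and Tyms, the thymidylate synthase, did so on 14.

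The RNA of cultured mouse CD4+ T cells was read on 16 Affymetrix arrays, 2 for each of 8 groups. The STAT3-deficient cells (CD4 Cre; STAT3floxed) carried floxed Stat3 alleles with a Cre recombinase driven from CD4, and the WT cells (STAT3floxed) carried the floxed alleles alone, so that every group carried a modified Stat3 locus and the WT cells held no Cre by their label. Naive cells (CD44-, CD62L+) of each genotype were activated through CD3 and CD28 for 3 days with IL-6 and TGFb, with IL-6, with TGFb, or with medium alone, with IL-6 labelled at 10 ug/ml and TGFb labelled at 2.5 ug/ml. No label says whether replicates were separate animals or cultures, and the p-values then describe the spread among these arrays alone. Sex-linked genes differed between the replicate numbers, with Xist high on replicate 1 and Eif2s3y, of the Y chromosome, high on replicate 2. Replicates 1 and 2 were thus neither repeat runs of the same RNA nor from the same animals. Ages of the animals are not given in the labels.

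A T cell leaves rest when cyclin D with Cdk4 or Cdk6, and then cyclin E with its kinase, release the E2F factors, which switch on the genes for loading the Mcm2 to Mcm7 helicase, for making nucleotides and for copying DNA. Mitotic genes follow later in the cycle under Cdk1 and its cyclins, and the Cdkn proteins p21 (Cdkn1a), p27 (Cdkn1b) and p18 (Cdkn2c) block cyclin-dependent kinases. TGFb is known as a brake on the division of T cells, and IL-6, which signals through STAT3, turns activated CD4+ T cells into Th17 cells when TGFb is also present.

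The labels were checked first. Stat3, the deleted gene, read log2 8.4 to 10.46 on the STAT3-deficient arrays, against 10.22 to 12.18 on the WT arrays. The mean change over the 4 conditions was -2.6 (SE 0.29, limma adjusted p = 0.0033). The ranges overlap at STAT3-deficient TGFb replicate 2, at 10.46, and WT medium replicate 1, at 10.22. Over all genes tested, that STAT3-deficient array was most like WT TGFb replicate 2 (centred correlation 0.86). The STAT3-deficient medium arrays were likewise most like the WT medium array of the same number (0.88 for replicate 1 and 0.77 for replicate 2). The place of the Stat3 probe set relative to the deleted exons was not known here. The 11 measured T cell markers, among them Cd3e and Cd4, all reached log2 8, with a median level of 11.76, and the measured markers of CD8, gamma delta, B, dendritic and erythroid cells stayed under log2 8 on every array. Of the NK, myeloid, platelet and stromal lists, Klrd1, Eomes, Mpeg1, Itga2b, Pecam1 and Epcam exceeded log2 8 on at least 1 array. The summed intensity of the NK list was 185 to 1324 on STAT3-deficient arrays, against 188 to 7475 on WT arrays; its part in the results was not tested. The replicate numbers differed in sex-linked genes. Xist lay between 6.64 and 7.6 on the replicate 2 arrays, against 11.91 to 13.21 on the replicate 1 arrays. The difference between the 5' and 3' control probe sets of Actb, a sign of RNA length, was -1.71 to -0.88 on replicate 2, against -0.5 to -0.11 on replicate 1.

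Single arrays stood apart in these genes. The array labelled STAT3-deficient TGFb replicate 1 was the lowest of 16 for 23 of the 50 members, 14 of them mitotic, and all 26 mitotic genes lay below their own mean there (median -0.55). The same array read Il17a, the Th17 cytokine gene, at 9.55, although its label names no IL-6, whereas replicate 2 of that group read 6.07. Over all genes tested, centred values of these replicates correlated at -0.29, and replicate 1 was most like STAT3-deficient IL-6 with TGFb replicate 1 (0.4). Foxp3, a gene that TGFb is known to induce, read 4.81 on WT TGFb replicate 1, within the range of the medium arrays (4.39 to 5.25), and 9.99 on WT TGFb replicate 2. The part of these markers in the results was not tested. WT IL-6 replicate 2 was the lowest array for 15 members, 10 of them of the G1/S group, and WT IL-6 replicate 1 the highest for 15. Medians of the gene groups that rest on these arrays are also given without them.

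**Figure D1:**
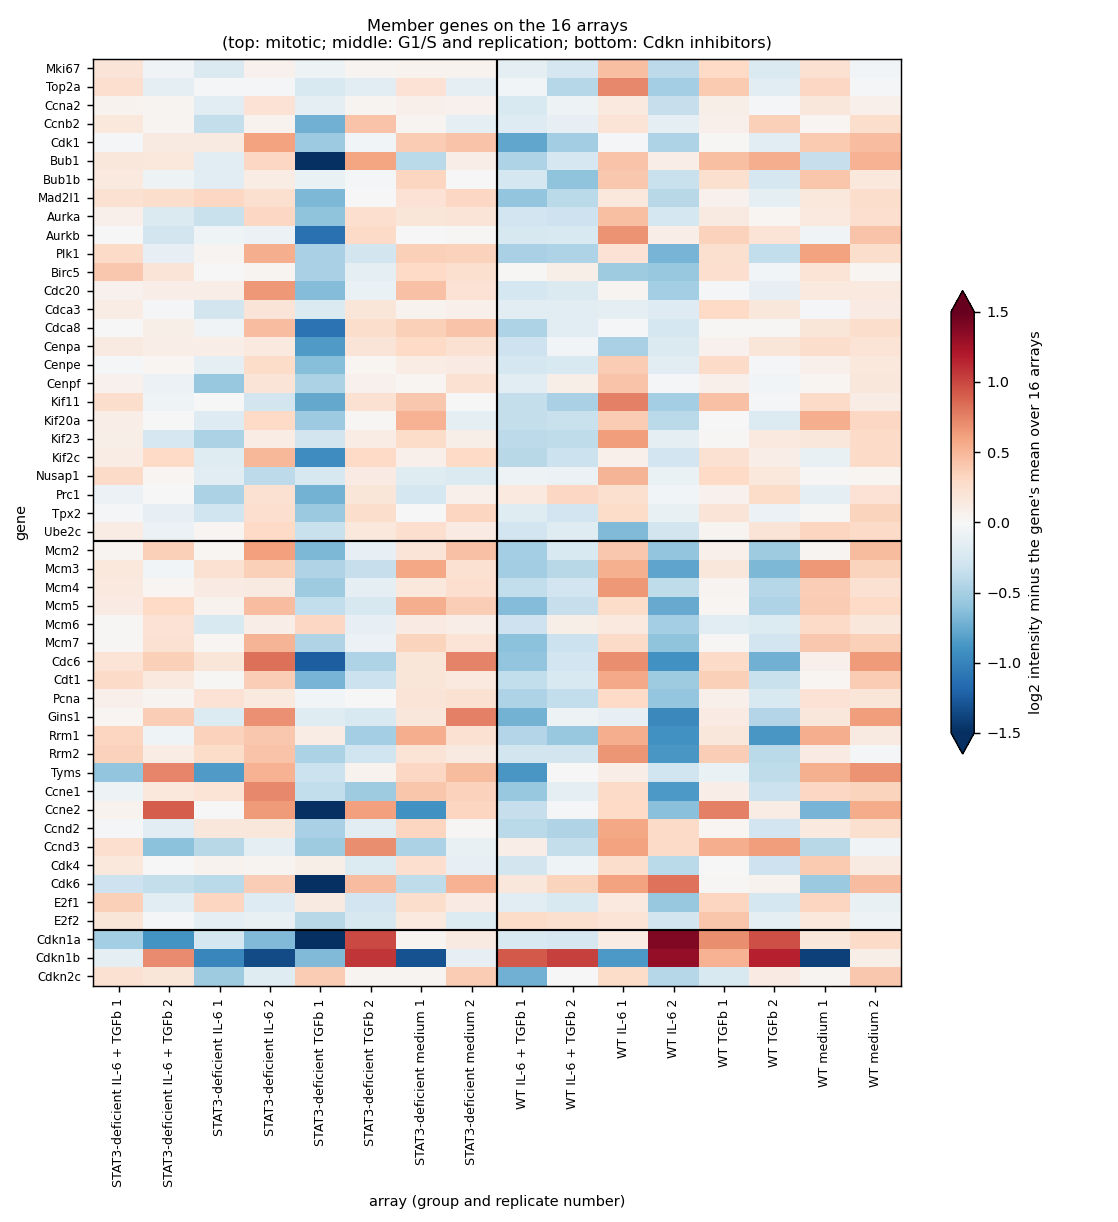
Log2 intensity of the 50 members (rows) on the 16 arrays (columns), each gene centred on its mean over the arrays; colours are clipped at 1.5 on either side. STAT3-deficient TGFb replicate 1, WT IL-6 replicate 2 and both WT IL-6 + TGFb columns are blue for most mitotic and replication genes.

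The median range between the highest and the lowest group mean was 0.61 on the log2 scale for mitotic genes, 0.86 for G1/S and replication genes and 1.53 for the inhibitors, against 0.66 for all genes tested. The median pooled SD within groups was 0.28, 0.37 and 0.82 in that order, against 0.29 for all genes. WT cells in IL-6 with TGFb had the lowest group mean for 14 of 26 mitotic and 8 of 21 G1/S genes, and STAT3-deficient cells in TGFb for 7 and 9. WT cells in medium had the highest mean for 10 mitotic and 6 G1/S genes. The ranges were smallest in a pair of mitotic genes: the group means of Mki67, the proliferation antigen Ki-67, spanned 0.29 (pooled SD 0.28), and those of Ccna2, cyclin A2, spanned 0.27 (pooled SD 0.17).

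**Figure D2:**
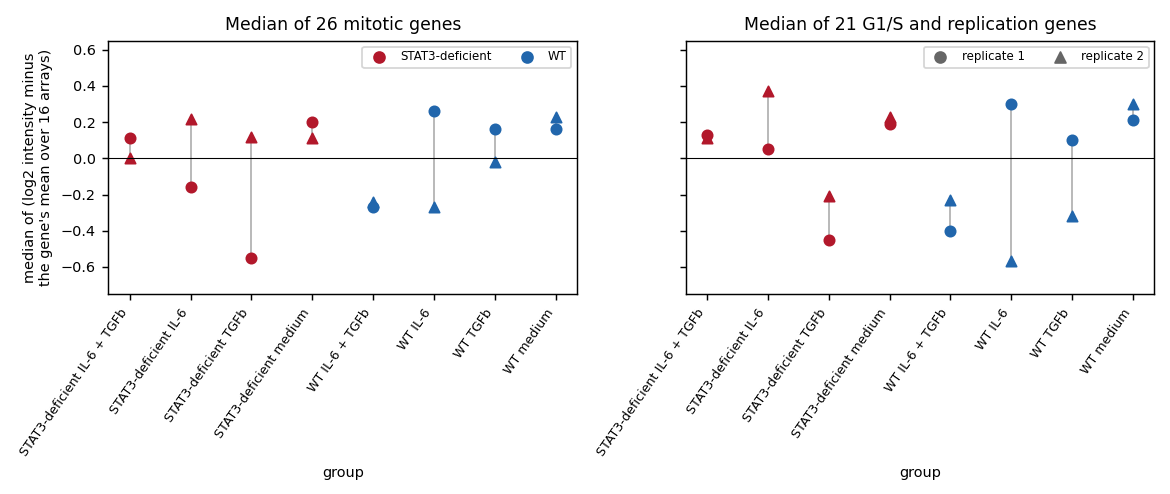
Median over 26 mitotic genes (left) and 21 G1/S and replication genes (right) of the log2 intensity minus each gene's mean over 16 arrays, for each array of the 8 groups; circles are replicate 1, triangles replicate 2, red STAT3-deficient and blue WT. The G1/S medians of WT IL-6 lie at 0.3 and -0.57, farther apart than those of any other group.

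The first question was what TGFb did to these genes, averaged over both genotypes and over IL-6 (8 arrays with TGFb against 8 without). Cdk1, the kinase that drives entry into mitosis, and Ccnd2, cyclin D2, fell, each by 0.48 on the log2 scale. No other member passed the adjustment over 13007 genes, so 2 of 50 members were called (limma, adjusted p under 0.05), against 9.25% of all genes in either direction and 3.79% called lower. At an unadjusted p under 0.05 there were 13 of 50, against 23.9%, and 12 of these were lower, against 12.1%. The adjusted count of members was near or below the background. Most members were nonetheless on the low side: 21 of 26 mitotic genes (median change -0.18) and 18 of 21 G1/S genes (median -0.36), against 51.5% of all genes (median -0.01). Less RNA per cell and fewer cells in a given phase cannot be told apart in bulk cultures.

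Cdk1 (probe set 1448314_at, chromosome 10) read log2 10.62 to 11.53 with TGFb (median 11.28), against 10.93 to 12 without it (median 11.78). The 2 sets of arrays overlap. Of the arrays without TGFb, those of WT cells in IL-6 were the lowest, at 11.37 and 10.93, and the other 6 lay at 11.53 or above. Matched by genotype, IL-6 and replicate number, Cdk1 was lower with TGFb in 8 of 8 differences, from -0.91 to -0.06. The fall was 1.39-fold (log2 change -0.48, SE 0.12, limma adjusted p = 0.029). With 1 array left out the adjusted p ran from 0.0158 to 0.0829 and passed in 7 of 16 fits, the call being lost without any one array of medium, without replicate 1 of IL-6 with TGFb in either genotype, and without STAT3-deficient IL-6 replicate 2, WT IL-6 replicate 1 or WT TGFb replicate 2. The change was -0.42 without STAT3-deficient TGFb replicate 1 (adjusted p = 0.0472) and -0.5 without WT TGFb replicate 1 (adjusted p = 0.0422).

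Ccnd2 (probe set 1416122_at, chromosome 6) read 12.34 to 12.85 with TGFb (median 12.6), against 12.84 to 13.4 without it (median 13.04). The sets met at a single pair of arrays, WT TGFb replicate 1 at 12.85 and STAT3-deficient medium replicate 2 at 12.84. All 8 matched differences were negative, from -0.98 to -0.11. The fall was 1.4-fold (SE 0.1 on the log2 scale, limma adjusted p = 0.0122), and it passed in 16 of 16 fits that left out 1 array (adjusted p 0.00939 to 0.0397). Its 6 further probe sets differed by -0.77 to -0.45.

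**Figure D3:**
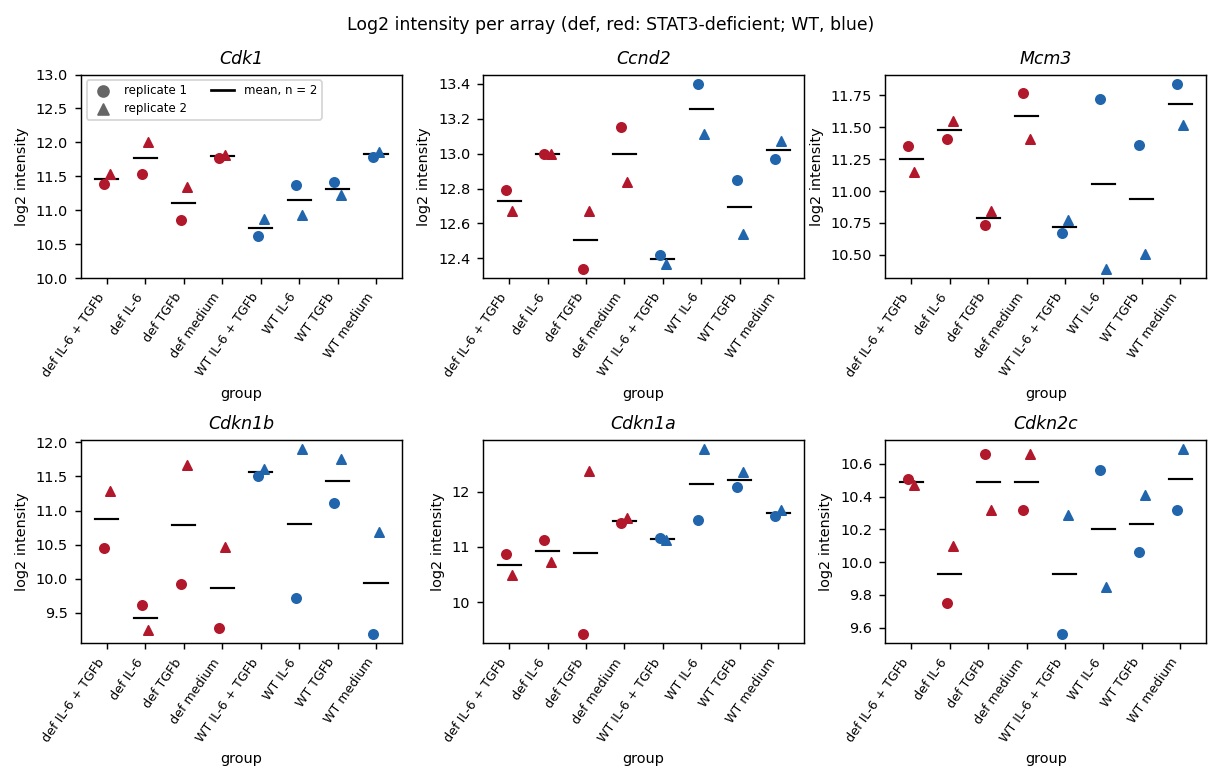
Log2 intensity on each array for Cdk1, Ccnd2, Mcm3, Cdkn1b, Cdkn1a and Cdkn2c in the 8 groups (def, STAT3-deficient, red; WT, blue); circles are replicate 1, triangles replicate 2 and bars the mean of 2 arrays. The TGFb groups lie low for Ccnd2, and replicates differ by over 1 log2 unit in several groups of Cdkn1a and Cdkn1b.

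Among the other D cyclin partners no change passed. The estimates were 0.18 ± 0.19 (SE) for Ccnd3, cyclin D3, -0.15 ± 0.12 for Cdk4 and -0.36 ± 0.3 for Cdk6 (lowest adjusted p of the 3 = 0.519). For Ccnd3 the choice of probe set decided the call: 1438805_at differed by 0.98, and the mean of its 3 probe sets by 0.45 (limma adjusted p = 0.00815). The lowest value of the G1/S group was that of Cdc6, which loads the helicase at origins, at -0.61 ± 0.25 (adjusted p = 0.164), and the highest mitotic value was that of Nusap1, a spindle protein, at 0.12 ± 0.11.

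Fitting the replicate number as a block added 2 calls in the TGFb comparison, Mcm3 and Cdkn1b, for 4 of 50 members against 16.3% of all genes. Mcm3, a subunit of the helicase, read 10.51 to 11.36 with TGFb (median 10.8), against 10.39 to 11.84 without it (median 11.53). WT IL-6 replicate 2, at 10.39, was the single array without TGFb below all of the TGFb arrays. The change was -0.53 ± 0.19, with limma adjusted p = 0.0493 in the blocked fit and 0.112 without the block. It was negative in 7 of 8 matched differences. With 1 array left out of the fit without the block, it ran from -0.69 to -0.36 and passed in 1 of 16 fits, without WT IL-6 replicate 2 (-0.69). Of 11 other settings, it passed in 1, the block itself. Of its probe sets, 4 differed by -0.56 to -0.46 and the dimmest, 1420029_at, by -0.02.

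Cdkn1b, the gene of the inhibitor p27, had a change of the opposite sign. It read 9.92 to 11.75 with TGFb (median 11.4), against 9.19 to 11.9 without it (median 9.66), and was higher in 7 of 8 matched differences (-0.28 to 2.04). The exception was WT IL-6 with TGFb replicate 2, at 11.61, against WT IL-6 replicate 2, at 11.9. The change was 2.22-fold (log2 1.15 ± 0.38), with limma adjusted p = 0.0116 in the blocked fit and 0.0841 without the block. With 1 array left out of the fit without the block, the log2 change ran from 0.88 to 1.42. It passed in 2 of these 16 fits, without STAT3-deficient TGFb replicate 1 (1.37) and without WT IL-6 replicate 2 (1.42). Of 11 other settings, it passed in 3, all of them blocked fits. A second probe set never reached the level minimum. Neither of the other inhibitors passed, with Cdkn1a at -0.3 ± 0.35 and Cdkn2c at 0 ± 0.15.

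WT IL-6 replicate 2 bore most on this comparison. Without it, 12 of 50 members were called, against 13% of all genes in the same fit (Cdk1, Plk1, Mcm3, Mcm4, Mcm5, Mcm7, Cdc6, Pcna, Rrm1, Ccne1 and Ccnd2 lower and Cdkn1b higher), with changes of Mcm4 at -0.52 and of Ccne1, cyclin E1, at -0.58. The median of the G1/S genes was then -0.42. Without WT IL-6 replicate 1 it was -0.26, and with STAT3-deficient TGFb replicate 1 left out it was -0.29, with the mitotic median at -0.07.

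Promoters are shown for 3 genes that TGFb moved in either fit, since the mitotic and the replication genes differ in the short motifs near their starts. The table of RefSeq promoters (GRCm38.p6, from 250 bases before to 50 after the start) held 42 of the 50 members, and Ccnd2 is named only. Each stretch runs 5′ to 3′ on the gene's strand over the 250 bases before the start, and capitals mark 3 kinds of motif on either strand. The first is TTTGAA, the cell cycle genes homology region of mitotic promoters, and the second is CCAAT, the box bound by NF-Y. The last is the core of an E2F site, counted in any of 4 forms, as the letters TTCCCGC or else the letters TTGGCGC, or as the letters TTCGCGC or else the letters TTGCCGC. Cdk1 lies at chr10:69352913-69353162 on the minus strand, Mcm3 at chr1:20820313-20820562 on the minus strand and Cdkn1b at chr6:134920151-134920400 on the plus strand.
Cdk1: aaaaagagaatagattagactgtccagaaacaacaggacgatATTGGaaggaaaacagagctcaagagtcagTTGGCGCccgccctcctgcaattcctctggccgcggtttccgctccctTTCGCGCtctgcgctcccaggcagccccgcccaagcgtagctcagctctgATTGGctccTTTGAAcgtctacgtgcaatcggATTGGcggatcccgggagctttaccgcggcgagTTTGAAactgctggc
Mcm3: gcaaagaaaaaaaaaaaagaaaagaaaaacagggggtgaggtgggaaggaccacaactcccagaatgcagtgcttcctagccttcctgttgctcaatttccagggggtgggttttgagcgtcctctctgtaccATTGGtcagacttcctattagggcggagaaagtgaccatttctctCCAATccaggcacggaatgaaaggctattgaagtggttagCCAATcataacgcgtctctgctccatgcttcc
Cdkn1b: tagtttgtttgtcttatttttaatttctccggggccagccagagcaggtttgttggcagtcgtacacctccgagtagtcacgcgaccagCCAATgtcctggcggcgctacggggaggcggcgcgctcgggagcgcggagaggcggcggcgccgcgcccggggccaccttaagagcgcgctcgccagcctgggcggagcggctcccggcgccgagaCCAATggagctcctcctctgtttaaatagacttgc

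The Cdk1 stretch holds 2 TTTGAA, 3 CCAAT and 2 E2F cores, the Mcm3 stretch 3 CCAAT and the Cdkn1b stretch 2 CCAAT. In Mcm3 the E2F letters begin 19, 39 and 42 bases after the start, outside the bases shown, and the match at 39 overlaps that at 42. Over the whole windows, TTTGAA was present in 18 of 23 windows of mitotic genes (78.3%) and 2 of 20 of G1/S genes (10%), against 17.9% of all windows. CCAAT was present in 82.6% and 60%, against 37.4%. An E2F core was present in 8.7% of mitotic and 50% of G1/S windows, against 9.57%. The paired half-sites TTC and GAA with 3 bases between them, as a STAT protein can bind, were in none of the mitotic and 1 of 20 G1/S windows, against 8.3%. A match is a run of letters and says nothing about whether a factor was bound.

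The next question was how the genes differed from medium under the Th17 cytokines. In WT cells, Cdk1 fell with IL-6 and TGFb. It read 10.62 and 10.87, against 11.79 and 11.86 in medium, a 2.11-fold fall (log2 change -1.08, SE 0.24, limma adjusted p = 0.0329). The arrays of these groups did not overlap. This was 1 of 50 members, against 3% of all genes called and 0.853% called lower. At an unadjusted p under 0.05 there were 11 of 50 members, all lower, against 16.2% of all genes in either direction and 7.94% lower. The call was kept in 6 of 16 fits that left out 1 array (adjusted p 0.0216 to 0.282) and lost without any one array of medium, of IL-6 with TGFb or of WT TGFb. In a fit of only the arrays compared it was lost too (adjusted p = 0.0908).

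Most members nonetheless lay below medium in these WT cells. Of the 50, 45 had a lower mean and 41 were lower with no overlap between the 2 pairs of arrays, against 28.3% of all genes. The median changes were -0.42 for mitotic and -0.62 for G1/S and replication genes, against -0.04 for all genes. The other large changes, none past the threshold, were those of Tyms (-1.04 ± 0.49), Mcm3 (-0.96 ± 0.38), Plk1, a kinase of mitotic entry and spindle assembly (-0.91 ± 0.31), and Mcm7 (-0.85 ± 0.29). Tyms read 5.81 and 6.69 with the cytokines, against 7.22 and 7.36 in medium, and its lower group lay near the level minimum. The 5 members with a higher mean were Cdkn1b (1.63 ± 0.76), Cdk6 (0.3 ± 0.6), E2f2, a factor of the E2F family (0.21 ± 0.24), Prc1, a midzone protein (0.2 ± 0.31), and Ccnd3 (0.11 ± 0.39). Cdkn1b read 11.51 and 11.61 with the cytokines, against 9.19 and 10.68 in medium.

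**Figure D4:**
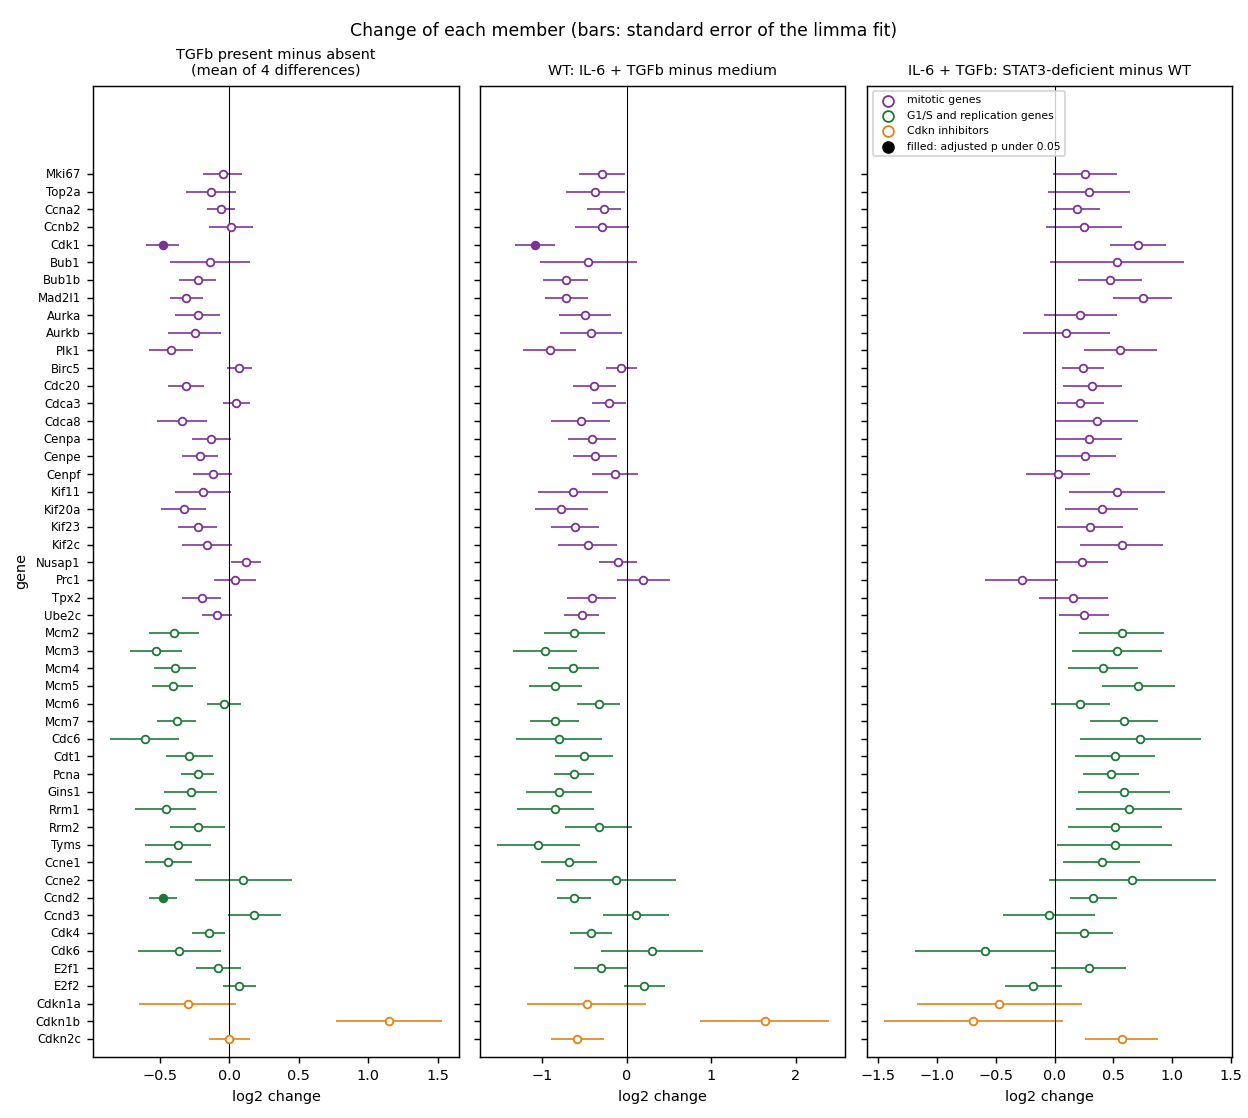
Log2 change of each member with its standard error for TGFb present minus absent (left), WT IL-6 + TGFb minus medium (middle) and STAT3-deficient minus WT under IL-6 + TGFb (right); the x axes differ in range. Filled points passed an adjusted p of 0.05: Cdk1 and Ccnd2 on the left, Cdk1 in the middle and none on the right.

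With a single cytokine no member was called against medium. In WT cells given TGFb, 35 of 50 members lay lower (G1/S median -0.42), against 47.6% of all genes. The lowest limma adjusted p was 0.467, no member had an unadjusted p under 0.05 (10.8% of all genes), and 0.223% of all genes were called. Without WT TGFb replicate 1 the G1/S median was -0.57. Values ran from -0.52 ± 0.31 (Kif20a) to 0.41 ± 0.57 (Bub1) among mitotic and from -0.84 ± 0.49 (Tyms) to 0.82 ± 0.39 (Ccnd3) among G1/S genes. In WT cells given IL-6, 39 of 50 lay lower, against 50.3% of all genes. An unadjusted p under 0.05 was found for 4 (12.6% of all genes), and 0.284% of all genes were called. The G1/S median there was -0.34 with both arrays, 0.15 without replicate 2 and -0.77 without replicate 1, so 1 array set its sign. Ube2c, the ubiquitin-conjugating enzyme of the anaphase-promoting complex, read 11.81 and 12.2 in WT IL-6 cells, against 12.8 and 12.76 in medium (-0.77 ± 0.21, adjusted p = 0.157). Aurkb (0.2 ± 0.37) was the highest mitotic gene, and the G1/S genes ran from Gins1 (-0.95 ± 0.39) to Cdk6 (0.76 ± 0.6).

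In STAT3-deficient cells no member was called against medium either (limma). With IL-6 and TGFb, 33 of 50 (66%) were lower, against 57.3% of all genes (medians -0.12 mitotic and -0.15 G1/S, against -0.05). None had an unadjusted p under 0.05, against 5.98% of all genes, with 0.138% called. The extremes were Cdca8 (-0.35 ± 0.35) and Nusap1 (0.35 ± 0.22), and Cdk6 (-0.4 ± 0.6) and Ccne2 (0.77 ± 0.71). With IL-6, 38 of 50 (76%) were lower, against 64.1% of all genes, and the median was -0.08 for the members and for all genes alike. None had an unadjusted p under 0.05 (1.33% of all genes), with 0% called. The extremes were Kif23 (-0.37 ± 0.28) and Bub1 (0.23 ± 0.57), and Tyms (-0.56 ± 0.49) and Ccne2 (0.62 ± 0.71). With TGFb, 46 of 50 (92%) were lower, against 52.4% of all genes (medians -0.39 and -0.54, against -0.02). Of these, 27 were lower with no overlap, against 21% of all genes. An unadjusted p under 0.05 was found for 10, all lower (12.4% of all genes, 6.66% lower), with 0.354% called. Cdc6 was lowest there, at 8.72 and 9.49, against 10.14 and 10.7 in medium (-1.32 ± 0.51, adjusted p = 0.315). The highest G1/S value was that of Ccnd3 (0.37 ± 0.39), and mitotic genes ran from Cdca8 (-0.82 ± 0.35) to Nusap1 (0.14 ± 0.22). Without STAT3-deficient TGFb replicate 1 the mitotic median was -0.05 and the G1/S median -0.35. Without replicate 2 of that group, Cenpa (-1.11), Cdca8 (-1.51) and Cdkn1a (-2.05) passed, against 1.9% of all genes in the same fit, a comparison of 1 array whose spread is assumed to be that of the other groups.

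IL-6 averaged over genotype and TGFb called none of the 50 members, against 0.0538% of all genes. Medians were -0.09 for mitotic and -0.07 for G1/S genes, against -0.03 for all genes. Only Ube2c had an unadjusted p under 0.05 in limma (-0.26 ± 0.11, adjusted p = 0.724), against 6.19% of all genes. Without STAT3-deficient TGFb replicate 1 the medians were -0.2 and -0.05, and without WT IL-6 replicate 2 they were -0.03 and 0.07. Prc1 was the highest mitotic gene (0.08 ± 0.15) and Tyms the lowest G1/S gene (-0.32 ± 0.24). The inhibitors differed by -0.33 ± 0.35 (Cdkn1a), 0.16 ± 0.38 (Cdkn1b) and -0.29 ± 0.15 (Cdkn2c), the D cyclins by 0.04 ± 0.1 (Ccnd2) and -0.07 ± 0.19 (Ccnd3), Cdk4 by -0.05 ± 0.12 and Cdk6 by 0.31 ± 0.3.

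The main question of the study was what the loss of STAT3 changed. No member was called in any of the 4 conditions or in their mean (limma), against 1.19%, 3.29%, 0%, 0% and 0.969% of all genes for IL-6 with TGFb, IL-6, TGFb, medium and the mean. Members with an unadjusted p under 0.05 numbered 3, 6, 1, 0 and 2 of 50 in that order, against 10.1%, 21.7%, 0.684%, 0.131% and 15.9% of all genes. The replicate block called none of the members in these 5 comparisons, against 2.48%, 11.5%, 0%, 0% and 5.36% of all genes.

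Under IL-6 with TGFb, most of these transcripts had a higher mean in STAT3-deficient than in WT cells, none past the test. Of the 50, 44 had a higher mean, 38 of them with no overlap, against 24.5% of all genes. The 3 at an unadjusted p under 0.05 were all higher, against 3.47%. Medians were 0.28 for mitotic and 0.51 for G1/S genes, against 0.01 for all genes. The comparison shares the 2 WT IL-6 with TGFb arrays with the WT comparison against medium. Mad2l1, of the spindle checkpoint, read 11.87 and 11.91 in STAT3-deficient cells, against 11.05 and 11.24 in WT cells (0.75 ± 0.25, adjusted p = 0.265). Cdk1 read 11.38 and 11.53, against 10.62 and 10.87 (0.71 ± 0.24, adjusted p = 0.273). Cdc6 was 0.73 ± 0.51 higher, and the lowest values of the G1/S and of the mitotic genes were those of Cdk6 (-0.59 ± 0.6) and Prc1 (-0.28 ± 0.31). With arrays weighted by their fit, Mad2l1 passed (adjusted p = 0.0376), against 3.46% of all genes in that fit.

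Among the inhibitors under IL-6 with TGFb, Cdkn1a read 10.87 and 10.49 in STAT3-deficient cells, against 11.16 and 11.13 in WT cells (-0.47 ± 0.7). Cdkn1b read 10.45 and 11.29, against 11.51 and 11.61 (-0.69 ± 0.76), and Cdkn2c read 10.51 and 10.47, against 9.56 and 10.29 (0.57 ± 0.31). The groups did not overlap for any of the 3, against 24.5% of all genes lower with no overlap and 24.5% higher. Ccnd2 differed by 0.33 ± 0.2, Cdk4 by 0.25 ± 0.25 and Ccnd3 by -0.05 ± 0.39.

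**Figure D5:**
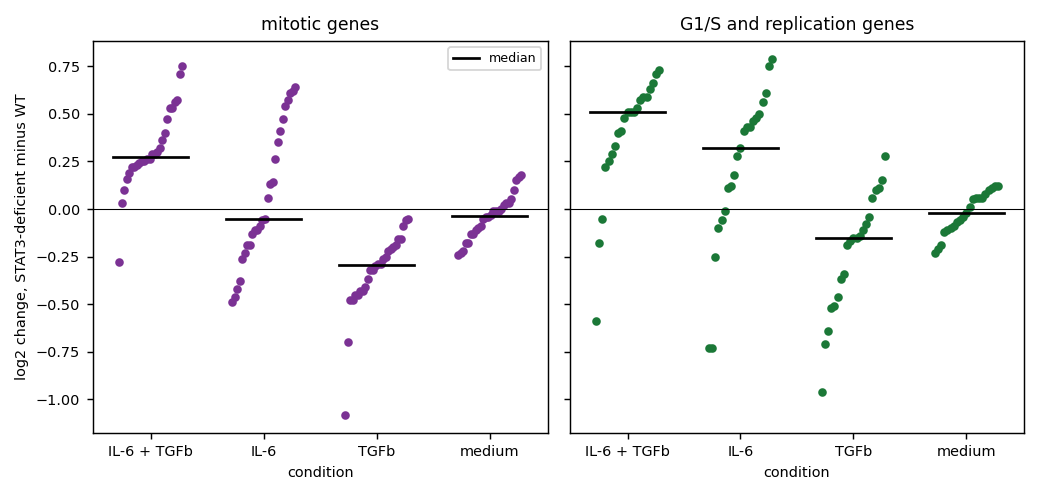
Log2 change, STAT3-deficient minus WT, of each of 26 mitotic genes (left) and 21 G1/S and replication genes (right) in the 4 conditions, sorted within a condition; black bars are medians. The points lie mostly above 0 under IL-6 + TGFb, all 26 mitotic genes lie below 0 under TGFb, and the points in medium lie within -0.24 and 0.18.

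Under IL-6 alone, the largest differences lay in the inhibitors Cdkn1a and Cdkn1b, whose groups did not overlap. Of the 50 members, 7 were lower with no overlap, against 27% of all genes, and 6 higher, against 20%. Neither inhibitor passed. Cdkn1a read 11.12 and 10.72, against 11.49 and 12.77 in WT cells (-1.21 ± 0.7, adjusted p = 0.338). Cdkn1b read 9.61 and 9.25, against 9.72 and 11.9 (-1.38 ± 0.76, adjusted p = 0.314). The size of both rests on WT IL-6 replicate 2, without which the median of the 3 inhibitors was -0.57, against -1.21 with it. On the WT array then left, Cdkn1a read 11.49, against a STAT3-deficient mean of 10.92. Cdkn1b read 9.72 there, against a STAT3-deficient mean of 9.43. Cdkn2c differed by -0.28 ± 0.31, Ccnd2 by -0.25 ± 0.2, Ccnd3 by -0.73 ± 0.39, Cdk4 by 0.11 ± 0.25 and Cdk6 by -0.73 ± 0.6. The G1/S median was 0.32 with both WT arrays, 0.75 without WT IL-6 replicate 1 and -0.21 without its replicate 2. Gins1, of the GINS complex at the replication fork, had the highest value of that group (0.79 ± 0.39). Mitotic genes ran from Ube2c (0.64 ± 0.21) to Nusap1 (-0.49 ± 0.22).

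Under TGFb, all 26 mitotic genes were lower in STAT3-deficient cells (median -0.3), against 53.9% of all genes (median -0.02). The groups did not overlap for 3 of the 26, against 8.88% of all genes. Without STAT3-deficient TGFb replicate 1 the median was 0.03, with 8 of 26 lower, and without WT TGFb replicate 1 it was -0.22. The G1/S median was -0.15 with all arrays, -0.02 without the first of these arrays and 0.09 without the other. Bub1, a checkpoint kinase, read 9 and 11.34, against 11.2 and 11.29 in WT cells (-1.08 ± 0.57), and Cdkn1a read 9.42 and 12.37, against 12.08 and 12.35 (-1.32 ± 0.7). In both genes replicate 2 lay within 0.1 of a WT array. Other named values were Bub1b (-0.05 ± 0.27), Mcm6 (0.28 ± 0.25), Ccne2 (-0.96 ± 0.71), Cdkn1b (-0.64 ± 0.76), Cdkn2c (0.26 ± 0.31), Ccnd2 (-0.19 ± 0.2), Ccnd3 (-0.51 ± 0.39), Cdk4 (0.1 ± 0.25) and Cdk6 (-0.71 ± 0.6). Without replicate 2 of the STAT3-deficient group, Bub1 (-2.25) and Cdkn1a (-2.79) passed, against 0.292% of all genes, again with 1 array on that side. The mitotic median with STAT3-deficient TGFb replicate 1 left out rests on 1 array too. That array, STAT3-deficient TGFb replicate 2, read Stat3 at 10.46, below the WT TGFb arrays, at 11.79 and 12.18. Among all WT arrays, only medium replicate 1 read lower, at 10.22. Further Stat3 probe sets read 9.54, 6.41 and 8.33 on that STAT3-deficient array. The WT TGFb arrays read 11.63 and 11.42, 7.11 and 7.13, and 7.45 and 8.21 in that order, so only the last probe set was not lower.

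In medium the genotypes lay close. Changes of the 50 members ran from -0.24 to 0.18, from Bub1 (-0.24 ± 0.57) to Cdc20, the activator of the anaphase-promoting complex (0.18 ± 0.25), and in the G1/S group from Ccne2 (-0.23 ± 0.71) to Mcm5 (0.12 ± 0.31). The inhibitors differed by -0.15 ± 0.7 (Cdkn1a), -0.06 ± 0.76 (Cdkn1b) and -0.02 ± 0.31 (Cdkn2c), Ccnd2 by -0.02 ± 0.2, Ccnd3 by -0.06 ± 0.39, Cdk4 by -0.19 ± 0.25 and Cdk6 by 0.11 ± 0.6.

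Over the 4 conditions, Cdkn1a and Cdkn1b were each lower in STAT3-deficient cells in 7 of 8 differences matched by condition and replicate number. The mean changes were -0.79 ± 0.35 for Cdkn1a (adjusted p = 0.306) and -0.69 ± 0.38 for Cdkn1b (adjusted p = 0.384). Cdkn1a passed only without STAT3-deficient TGFb replicate 2 (-1.15, adjusted p = 0.0151), of the 16 fits that left out 1 array, against 3.01% of all genes in that fit. Without STAT3-deficient TGFb replicate 1 the change of Cdkn1a was -0.42, and without WT IL-6 replicate 2 that of Cdkn1b was -0.42. Cdk1 differed by 0.27 ± 0.12, Aurkb, the kinase of the chromosomal passenger complex, by -0.31 ± 0.19, Gins1 by 0.35 ± 0.19 and Cdkn2c by 0.13 ± 0.15. The D cyclins and their kinases differed by -0.03 ± 0.1 (Ccnd2), -0.34 ± 0.19 (Ccnd3), 0.07 ± 0.12 (Cdk4) and -0.48 ± 0.3 (Cdk6).

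The difference between the genotypes in the effect of IL-6 was tested as an interaction. It called no member (limma), against 0.354% of all genes, with 6 of 50 at an unadjusted p under 0.05, all positive, against 12.1% in either direction and 3.59% positive. The estimate was positive for 45 of 50 members (medians 0.32 mitotic and 0.5 G1/S, against 0 for all genes), so the estimated effect of IL-6 lay higher in STAT3-deficient than in WT cells for these genes. Its size rests in part on single arrays. Without STAT3-deficient TGFb replicate 1 it was positive for 40 of 50 (medians 0.19 mitotic and 0.41 G1/S), and without WT IL-6 replicate 2 for 39 of 50 (medians 0.21 and 0.17). Values ran from Bub1 (0.83 ± 0.57) to Cenpf (-0.08 ± 0.27) among mitotic genes, and from Ccne2 (1.17 ± 0.71) to Cdk6 (-0.36 ± 0.6) in the G1/S group. With STAT3-deficient TGFb replicate 1 left out, Bub1 was at 0.24, Ccne2 at 0.59, Cenpf at -0.22 and Cdk6 at -0.92. The smallest unadjusted p was that of Cdk1 (0.78 ± 0.24, adjusted p = 0.204), which was at 0.66 without that array. The interaction with TGFb called none (0% of all genes), with 1 member, Birc5 (-0.45 ± 0.18), at an unadjusted p under 0.05, against 2.64% of all genes. Nusap1 (0.33 ± 0.22) was its highest mitotic gene, and the G1/S genes ran from Ccne1 (-0.37 ± 0.33) to Tyms (0.44 ± 0.49).

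Between the replicate numbers (replicate 2 minus 1, in the blocked fit) 3 of 50 members changed, against 19.8% of all genes, and 8 had an unadjusted p under 0.05, against 37.2%. Rrm1, of ribonucleotide reductase, changed by -0.54 ± 0.16 (adjusted p = 0.036) and the factor E2f1 by -0.42 ± 0.09 (adjusted p = 0.0133), and Cdkn1b by 0.97 ± 0.25 (adjusted p = 0.0234). Cdk6 had the highest G1/S value (0.67 ± 0.23), and mitotic genes ran from Top2a (-0.4 ± 0.13) to Bub1 (0.52 ± 0.24), none of them past the test. Sex, RNA length and any other difference between the replicate numbers cannot be told apart here.

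Other genes of the pathway, 120 tested of 130 listed, were tested in the same fit. With TGFb present, 10 were called lower and 4 higher, against 3.79% of all genes lower and 5.46% higher. A negative change was found for 98 of 120 (median -0.24), against 51.5% of all genes (median -0.01). Of the 10, 7 were replication genes, and the 6 largest falls were those of Ung, Mybl2, Orc1, Pold2, Pole2 and Cdc25a. Ung, uracil-DNA glycosylase, changed by -0.89 ± 0.16 (limma adjusted p = 0.00602) and Pold2, a subunit of DNA polymerase delta, by -0.68 ± 0.14 (adjusted p = 0.0126). The factor Mybl2 changed by -0.81, the origin protein Orc1 by -0.73, Pole2 of DNA polymerase epsilon by -0.63 and the phosphatase Cdc25a by -0.59. The 4 that rose were Ccng2, cyclin G2 (1.46 ± 0.3, limma adjusted p = 0.013), Gadd45a (0.86), Tob1 (0.81) and Btg2 (0.68). All came from the list of brakes on the cycle, of whose 11 tested genes 5 had a negative change (median 0.32). The lists were chosen with earlier results of these data known. Gadd45a lay near the level minimum, with means of 7.34 with TGFb and 6.48 without it.

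Of the same 120 genes, 3 were called lower in WT cells with IL-6 and TGFb against medium, Pold2 (-1.55), Ung (-1.53) and Pola1 (-1.05), and none higher, against 0.853% of all genes lower and 3% in either direction. Pold2 read 9.12 and 9.49 with the cytokines, against 10.98 and 10.73 in medium. Between the genotypes under IL-6, Ccng2 (-2.5 ± 0.61, adjusted p = 0.0489) and Rbl2, the pocket protein p130 (-1.73 ± 0.35, adjusted p = 0.0265), were lower in STAT3-deficient cells, against 2.73% of all genes called lower, and none of the 120 was called under the other conditions or in the mean. With the replicate block, 24 of the 120 were called for TGFb (16.3% of all genes), 11 for WT IL-6 with TGFb against medium (6.4%), 9 for the genotypes under IL-6 (11.5%) and 2 for the genotypes in the mean (5.36%), and none for the genotypes under the other 3 conditions. Between the replicate numbers 9 were higher and 9 lower, against 12.7% of all genes higher and 7.12% lower.

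Further probe sets of the members mostly ran the same way. Of 58 that reached the level minimum, 55 had the sign of the chosen one for TGFb, with opposite signs in E2f1, Prc1 and Top2a, and 54 for WT IL-6 with TGFb against medium, with opposite signs in E2f1, Kif2c, Mcm3 and Top2a.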

How the data were processed

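Total RNA of 16 samples of mouse CD4+ T cells was hybridised to 1 Affymetrix array each. The authors deposited intensity values on a linear scale, made with RMA per the submitters' processing notes; its version, and the way back to a linear scale, were not given in the sources used. All (100%) were whole numbers, between 6 and 37243, and array medians lay between 66 and 73. The number of arrays limits the precision.

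Log2 was taken with no pseudocount. Of 45101 probe sets, 64 were controls, 34945 had 1 gene symbol, 932 several and 9160 none; 34741 matched the GRCm38.p6 gene table, from which chromosomes come. Each gene took its probe set of highest mean log2. All 16 arrays were fitted in limma 3.58.1 (R 4.3.3) with 8 group means, lmFit, contrasts.fit and eBayes (8 residual and 3.27 prior degrees of freedom), two-sided, with Benjamini-Hochberg adjustment over 13007 genes within each of 15 comparisons; the call needed an adjusted p under 0.05. Values after ± in the text are standard errors of this fit, unless an SD is named. The role groups were described by counts and medians with no test. The fit was tested on simulated data.

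Titles gave the group and the replicate number of each array. Same-numbered arrays of different groups deviated together from their group means over 28 pairs of groups (correlation 0.11 to 0.86, median 0.33), so the numbers pair the samples. The labels do not say what the numbers stand for. The main fit and its standard errors leave this pairing out, and the replicate block takes it in. Members, other pathway genes, markers and motifs were chosen with earlier results of these data known. Named were members past the threshold, the highest and lowest mitotic and G1/S member of a comparison, the inhibitors and the D cyclins with their kinases; other members named were chosen after their values were seen. Alternatives were the replicate block, array weights, filters on low values, all probe sets averaged, quantile normalization, 32 added before log2, a covariate for the Actb control, only the arrays compared, and arrays left out. Leaving out STAT3-deficient TGFb replicate 1 in the blocked fit was added after seeing the data. Figures used matplotlib 3.10.9.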

Additional observations from a re-analysis of the deposited data

How the results depend on the processing

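No member called in the main fit changed its direction under any alternative that was run. This does not hold for calls made only in an alternative fit. Between the genotypes under TGFb, Cdkn1a was at -2.79 without STAT3-deficient TGFb replicate 2. Without replicate 1 of that group, 0 of 3 inhibitors were lower (median 0.16). With 1 array left out, the TGFb comparison called between 1 and 12 of 50 members (12 without WT IL-6 replicate 2, 5 without STAT3-deficient TGFb replicate 2, against 13% and 10.4% of all genes), WT IL-6 with TGFb against medium 0 to 1, STAT3-deficient TGFb against medium 0 to 3, the genotype comparison under TGFb 0 to 2 and its mean 0 to 1, in each of these last 3 through STAT3-deficient TGFb replicate 2, and the replicate number 1 to 3; the other comparisons stayed at 0. With the replicate block the TGFb comparison called 4, against 16.3% of all genes. Without replicate 1 of both TGFb groups of STAT3-deficient cells (with and without IL-6), the call of Cdk1 was lost (-0.4). Leaving out STAT3-deficient TGFb replicate 1 in the blocked fit, chosen after seeing the data, kept Cdk1, Ccnd2 and Cdkn1b (adjusted p = 0.0323, 0.0114 and 0.0114). The block changed no other count of members called. Array weights gave 4 calls for WT IL-6 with TGFb against medium (7.53% of all genes) and 1 for the genotypes under that condition (3.46%), and only the arrays compared gave 0 for the comparison of WT cells. The replicate number called 7 members with all probe sets averaged (19.9% of all genes) and 6 after quantile normalization (19.2%). With the Actb covariate in the blocked fit it called 0 (0.0384% of all genes). The Actb values of the replicate numbers do not overlap, so that fit could not tell them apart. The cause of these moves was not tested. Low signal limits Tyms, which lay under the level minimum on 2 of 16 arrays.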
